A study of Homo sapiens with 6 samples.

Results

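The genes described here were 36 plasma carrier proteins, apolipoproteins and their companions that the liver secretes, named from ALB to LCAT as a fixed list of symbols. All 36 were found among the 61541 Ensembl genes of the deposited count table, and 32 held enough counts to be tested. Transcriptomes of luciferases-expressing HepG2 cells were compared between 3 control libraries and 3 libraries of cells treated with sedanolide, a phthalide of celery, at 100 μM for 24 h. HepG2 is a human hepatoblastoma cell line, and the cells of both groups carried a mouse artificial chromosome vector with the reporters TK-ELuc, a green luciferase used as internal control, and ARE-TK-SLR3, a red luciferase driven by antioxidant response elements. All libraries therefore came from a single tumour line grown without other liver cells. The labels name the control group only as Control, and its vehicle was not stated there. According to the methods, sedanolide was dissolved in dimethyl sulfoxide. No source used here says whether the 3 libraries of a group came from separate cultures, so that the p-values measure only the spread between these libraries, which may be technical.

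Hepatocytes make most of the proteins that circulate in plasma. Some of them carry ligands that dissolve poorly in water or must be held safely, such as fatty acids, hormones, retinol, iron, heme and free hemoglobin. Others hold protease activity in check, and the apolipoproteins form the shell of lipoprotein particles and steer the enzymes and receptors that act on them. Transcription of many of these genes in the liver depends on the factors HNF1, HNF4A, FOXA and C/EBP. The antioxidant response element (ARE) is the DNA sequence bound by NRF2, the factor followed by the red reporter.

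The promoters of the 3 genes with the smallest p-values, APOA5, ITIH3 and SERPINA7, and of ALB, the best known gene of the group, are shown so that the positions of 3 motifs in them can be read. Each window runs 5′ to 3′ on the strand of the gene, from 250 bases before to 50 bases after the start site given by RefSeq on GRCh38.p14, and capitals mark motif matches.
APOA5 promoter window, chr11:116792371-116792670, minus strand: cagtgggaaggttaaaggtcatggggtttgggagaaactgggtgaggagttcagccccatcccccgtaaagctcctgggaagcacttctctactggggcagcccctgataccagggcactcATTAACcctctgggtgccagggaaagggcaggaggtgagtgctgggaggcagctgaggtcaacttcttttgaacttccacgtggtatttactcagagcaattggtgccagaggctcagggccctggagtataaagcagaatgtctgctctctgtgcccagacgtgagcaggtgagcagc
ITIH3 promoter window, chr3:52794546-52794845, plus strand: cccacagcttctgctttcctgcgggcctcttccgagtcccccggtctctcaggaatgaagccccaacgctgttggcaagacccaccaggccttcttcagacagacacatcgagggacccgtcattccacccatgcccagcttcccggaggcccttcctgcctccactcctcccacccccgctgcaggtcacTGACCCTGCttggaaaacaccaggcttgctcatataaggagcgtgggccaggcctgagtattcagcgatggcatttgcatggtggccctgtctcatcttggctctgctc
SERPINA7 promoter window, chrX:106038678-106038977, minus strand: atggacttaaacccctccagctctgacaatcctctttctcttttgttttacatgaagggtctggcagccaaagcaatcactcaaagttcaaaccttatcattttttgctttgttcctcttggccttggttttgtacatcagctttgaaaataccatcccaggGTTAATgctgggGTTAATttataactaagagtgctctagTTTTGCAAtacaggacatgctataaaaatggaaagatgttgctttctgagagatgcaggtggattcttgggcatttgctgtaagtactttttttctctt
ALB promoter window, chr4:73404037-73404336, plus strand: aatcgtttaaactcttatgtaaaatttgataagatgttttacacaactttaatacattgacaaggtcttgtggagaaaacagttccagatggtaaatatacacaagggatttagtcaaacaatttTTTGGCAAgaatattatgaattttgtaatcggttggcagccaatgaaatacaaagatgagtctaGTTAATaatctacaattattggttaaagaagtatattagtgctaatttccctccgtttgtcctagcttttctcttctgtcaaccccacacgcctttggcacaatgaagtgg

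The motifs searched on both strands were GTTAAT, a core part of HNF1 sites, TTGCNNAA for C/EBP and TGACNNNGC, the core of the ARE. They do not share letters at any of the matches shown, whose positions are given by their leftmost base before the start site. The APOA5 window held GTTAAT at -129 on the opposite strand. The SERPINA7 window held it at -88 and at -76, with a C/EBP match at -49 on the opposite strand. The ALB window held GTTAAT at -61 and a C/EBP match at -125, the latter on the opposite strand. The ITIH3 window held the ARE core at -59. RefSeq windows were matched for 27 of the 36 genes, some of which have several start sites. GTTAAT was present in 18.9% of their 37 windows and in 6.88% of all 35116 promoter windows, the C/EBP motif in 24.3% and 10.5%, and the ARE core in 13.5% and 13.3%. These matches are descriptions of sequence and say nothing about binding.

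The libraries held 16420258 to 26714853 counts. Component 1 of a principal component analysis of log2 CPM, the counts of a gene scaled to the size of its library, took 56.1% of the variance and did not follow the treatment. Control 1, control 2 and sedanolide 3 lay on its first side, where mitochondrial genes took 1.43% to 2.15% of the counts. Control 3, sedanolide 1 and sedanolide 2 lay on its second side, where they took 4.23% to 5.22%. All 11 hepatocyte and HepG2 markers were above 1 CPM in every library. CD3E and CD163 of leukocytes, VWF of endothelium, and DCN and LUM of fibroblasts were at 0 counts in all 6. In a culture of this kind, fewer cells of a type and less RNA per cell cannot be told apart.

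To determine how sedanolide affected these genes, expected counts were compared with the quasi-likelihood test of edgeR, with Benjamini-Hochberg adjustment over all 14104 features tested. A gene was called at an adjusted p below 0.05 and a fold change above 1.5. Only APOA5 was called lower, that is 1 of the 32 genes tested, beside 0.312% of all features called lower. No gene of the group was called higher, beside 0.362% of all features. At an unadjusted p under 0.05, 9 of the 32 genes (28.1%) were lower, beside 6.57% of all features, and 0 were higher, beside 5.35%. DESeq2 called 3 lower, namely APOA5, ITIH3 and SERPINA7, beside 1.4% of all features, and 0 higher, beside 0.922%. At an unadjusted p under 0.05 it gave 10 lower, beside 6.24% of all features, and 0 higher, beside 6.17%. The log2 fold change was below 0 for 24 of the 32 genes (75.0%), beside 49.3% of all features. The median log2 fold change was -0.23 over the 32 genes and 0.0057 over all features. All 3 sedanolide libraries lay below all 3 controls in 10 of the 32 genes (31.2%), beside 9.65% of all features, and above them in 1 gene (3.12%), FETUB, beside 8.69%.

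**Figure D1:**
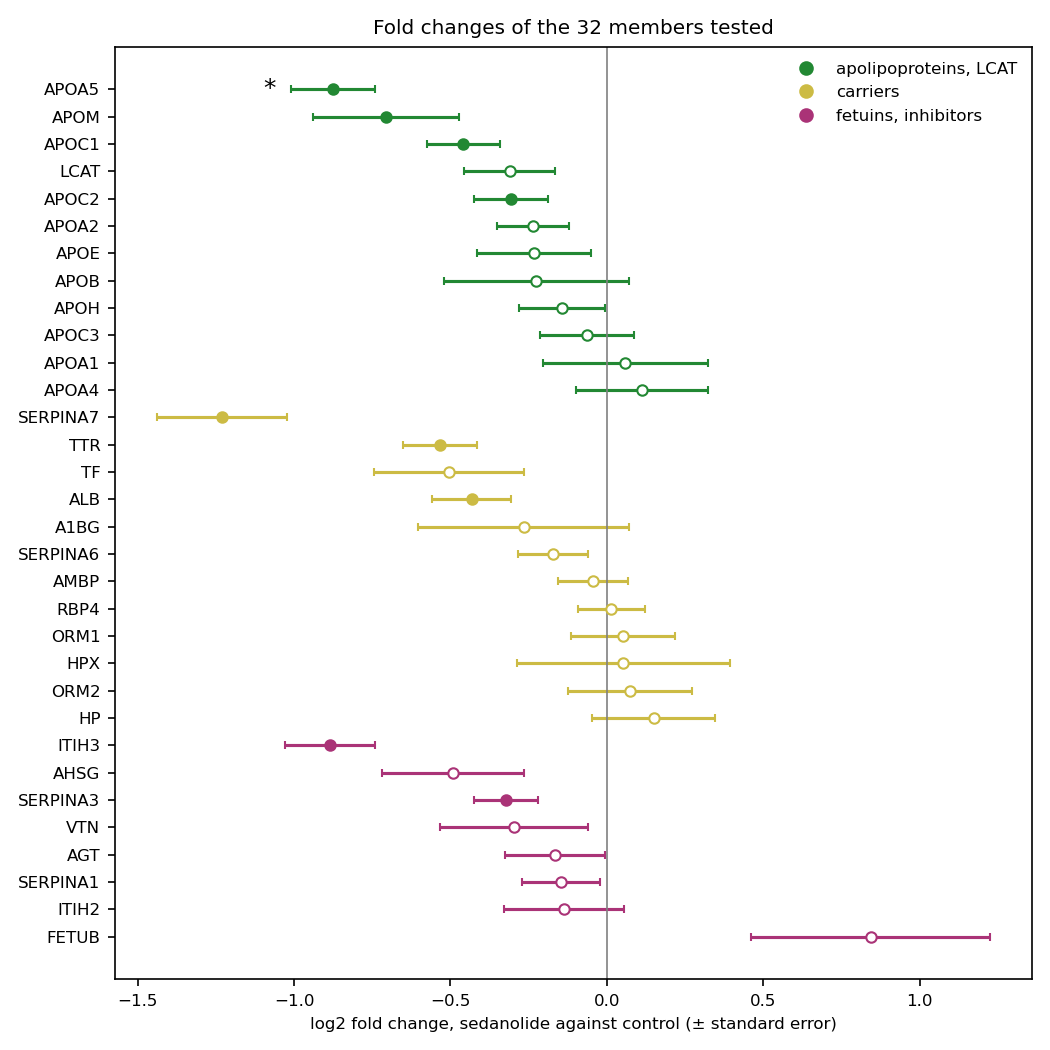
Log2 fold change of sedanolide against control with its standard error (edgeR, 3 libraries a group) for the 32 genes tested, grouped by role. Filled points had an unadjusted p under 0.05 and the star marks APOA5, the only gene called; 24 points lie left of 0, and FETUB, at 0.84, lies farthest to the right.

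Among the 14 carriers, the thyroid hormone carriers SERPINA7 and TTR and the fatty acid carrier ALB were lower at an unadjusted p under 0.05, and none was called. Of the 12 carriers tested, 7 had negative and 5 positive log2 fold changes, with a median of -0.11. SERPINA7, also known as thyroxine-binding globulin, was at 37.6, 46.6 and 28.6 normalized CPM in control 1, 2 and 3, and at 14.7, 14.5 and 18.8 in sedanolide 1, 2 and 3. The groups did not overlap, and control 3 was the lowest of the controls. Its log2 fold change was -1.23 ± 0.21 (SE; adjusted p = 0.0629, edgeR with Benjamini-Hochberg adjustment), which in absolute size was the largest of the 32 genes. Without sedanolide 3 it was -1.36 and the gene passed the threshold (adjusted p = 0.0390 with edgeR), whereas leaving out any other library gave adjusted p between 0.0577 and 0.390.

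TTR, transthyretin, carries thyroxine and, together with the retinol-binding protein RBP4, retinol. Its level was 39.3, 39.4 and 37.8 CPM in the controls and 29.8, 24.6 and 26.1 CPM in the sedanolide libraries. The controls lay close together (SD 0.909 CPM) and above every sedanolide library. This gave a log2 fold change of -0.53 ± 0.12 (SE; adjusted p = 0.133 with edgeR). RBP4, its partner in retinol transport, had a log2 fold change of 0.014 ± 0.11 (SE), with means of 493 ± 17.2 CPM in the controls and 498 ± 26.3 CPM with sedanolide (SD, n = 3 each).

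ALB, serum albumin, was at 1218, 1249 and 1039 CPM in the controls and at 803, 914 and 881 CPM in the sedanolide libraries. No sedanolide library reached the lowest control, and the log2 fold change was -0.43 ± 0.13 (SE; adjusted p = 0.241 with edgeR). Of its relatives, AFM (afamin, a vitamin E carrier) held at most 1 count and GC (the vitamin D-binding protein) at most 1 count in any library, so that no change could be detected in them at this depth. A count of 0 allows up to 3 counts, that is 0.112 to 0.183 CPM depending on the library, by counting error alone.

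TF, transferrin, which carries iron, was at 4256, 4956 and 3214 CPM in the controls and at 2343, 2589 and 3829 CPM in the sedanolide libraries. Here the groups overlapped, since sedanolide 3 lay above control 3, and the log2 fold change was -0.50 ± 0.24 (SE; adjusted p = 0.464 with edgeR). SERPINA6, the corticosteroid carrier, had no overlap between groups, yet the difference was small (143 ± 10.2 against 127 ± 4.79 CPM, SD, n = 3 each). Its log2 fold change was -0.17.

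The carriers of the acute phase and of hemoglobin or heme had log2 fold changes near 0. They were 0.15 for HP, which binds hemoglobin, 0.053 for HPX, which binds heme, 0.052 for ORM1 and 0.075 for ORM2, the acid glycoproteins, and -0.044 for AMBP, the precursor of alpha-1-microglobulin and bikunin. Their standard errors were 0.11 to 0.34, so that changes of this size could not be detected. ORM1 and ORM2 are near-identical copies whose reads can be split between them, and HP has the close copy HPR. A1BG, whose value was -0.27, was counted at 0.606 to 1.44 CPM only and shares 1622 exon bases with another annotated gene of the same strand, so that its value is uncertain.

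Among the 10 fetuins, protease inhibitors and matrix-binding proteins, ITIH3 and SERPINA3 were lower at an unadjusted p under 0.05, and none was called. Of the 8 tested, 7 had negative log2 fold changes, with a median of -0.23. ITIH3, a heavy chain that is joined to bikunin and stabilizes hyaluronan in the matrix, was at 11.8, 14.2 and 11.2 CPM in the controls and at 6.45, 6.72 and 6.94 CPM in the sedanolide libraries. The sedanolide libraries lay close together and well below the lowest control. With a log2 fold change of -0.89 ± 0.14 (SE; adjusted p = 0.0513 with edgeR), ITIH3 lay just outside the threshold.

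The other heavy chains did not share a pattern that could be tested. ITIH2, the most abundant of them, had a log2 fold change of -0.14 ± 0.19 (SE) with overlapping groups. ITIH1 held 3 to 12 counts and ITIH4 1.46 to 7 counts per library and were not tested. In both of these every sedanolide library lay below every control, at 0.119 to 0.323 against 0.396 to 0.606 CPM for ITIH1 and 0.0785 to 0.159 against 0.221 to 0.392 CPM for ITIH4. At such counts the ratio is imprecise.

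SERPINA3, antichymotrypsin, was at 66.7, 67.9 and 65.3 CPM in the controls and at 52.7, 51.7 and 55.5 CPM in the sedanolide libraries. Its spread within each group was small (SD 1.27 and 1.96 CPM), and the groups did not overlap. This was a log2 fold change of -0.32 ± 0.10 (SE; adjusted p = 0.275 with edgeR). Its neighbour SERPINA1, alpha-1-antitrypsin, which inhibits neutrophil elastase, had a log2 fold change of -0.15 ± 0.12 (SE) with overlapping groups.

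The fetuins AHSG and FETUB had values of opposite sign. AHSG, which keeps calcium phosphate in solution, was at 4914, 4956 and 3180 CPM in the controls and at 2563, 2918 and 3806 CPM with sedanolide. The groups overlapped through control 3 and sedanolide 3, and the log2 fold change was -0.49 ± 0.23 (SE; adjusted p = 0.451 with edgeR). FETUB was at 0.727, 0.296 and 0.678 CPM in the controls and at 1.08, 0.811 and 1.11 CPM with sedanolide, which corresponds to 7 to 28 counts per library. It was the only gene of the group whose sedanolide libraries all lay above the controls, with a log2 fold change of 0.84 ± 0.38 (SE; adjusted p = 0.440 with edgeR). VTN (vitronectin, a cell adhesion protein) and AGT (angiotensinogen, the precursor of angiotensin) had values of -0.30 ± 0.24 and -0.17 ± 0.16 (SE), with overlapping groups.

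**Figure D2:**
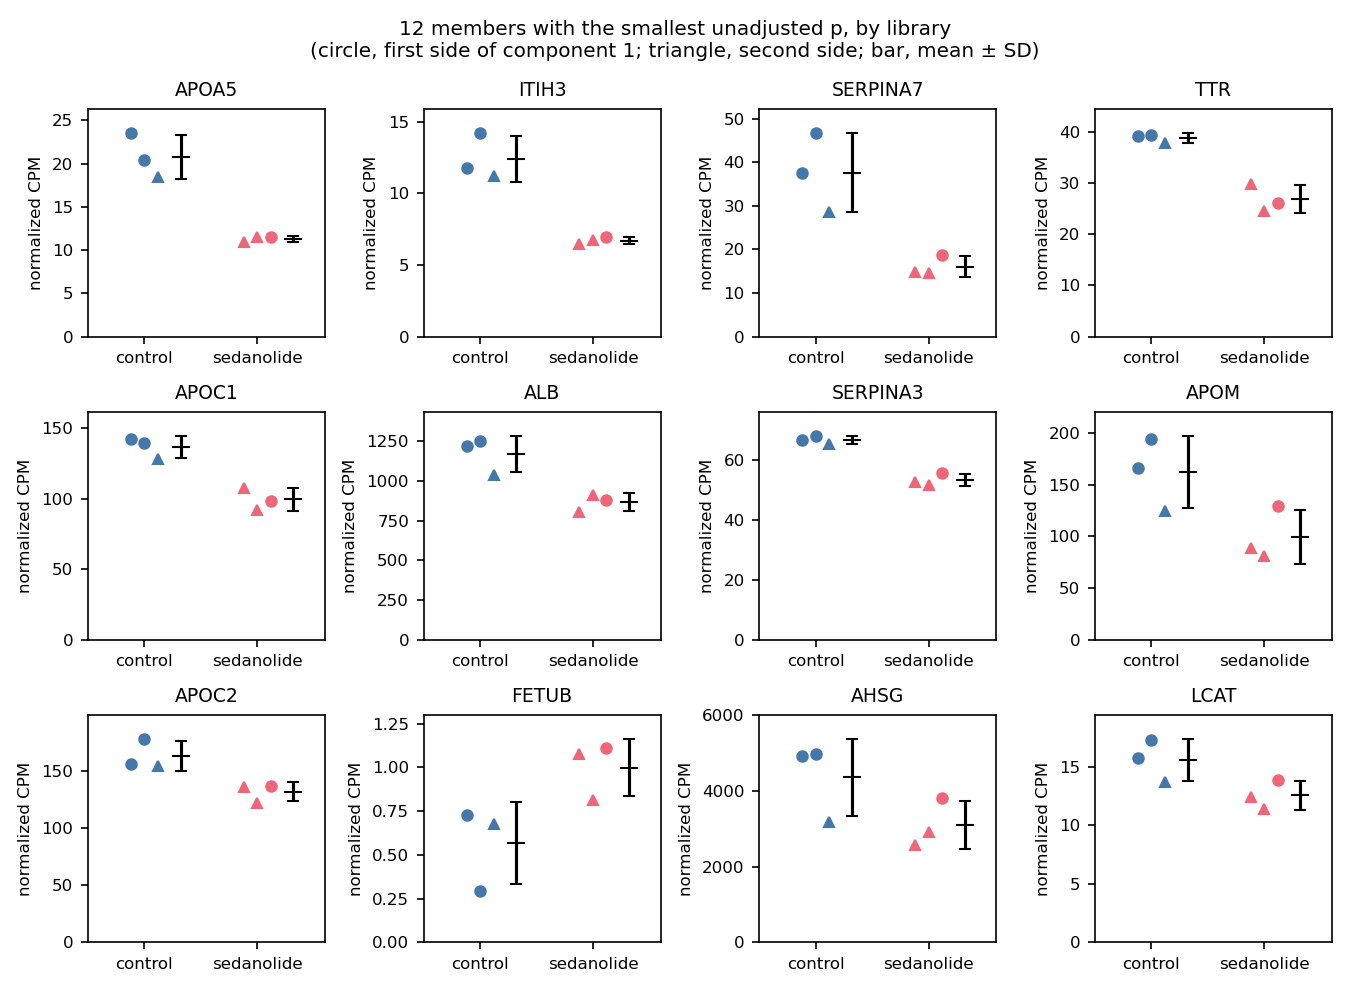
Normalized CPM in each library (points) with the mean and SD of each group (bars, n = 3) for the 12 genes with the smallest unadjusted p; circles are libraries of the first side of component 1 and triangles those of the second. In APOA5, ITIH3, SERPINA7, TTR, APOC1, ALB, SERPINA3 and APOC2 the groups do not overlap, whereas in APOM, AHSG and LCAT sedanolide 3 lies above control 3.

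The 12 genes for apolipoproteins and LCAT were all tested. APOA5 was called lower, APOC1, APOM and APOC2 were lower at an unadjusted p under 0.05 only, and 10 of the 12 had negative log2 fold changes, with a median of -0.23. APOA5, a scarce apolipoprotein that promotes the hydrolysis of triglyceride by lipoprotein lipase, was at 23.5, 20.4 and 18.5 CPM in control 1, 2 and 3. It was at 10.9, 11.5 and 11.5 CPM in sedanolide 1, 2 and 3, so that every sedanolide library lay far below every control. APOA5 fell by 45.5%, with a log2 fold change of -0.88 ± 0.13 (SE; adjusted p = 0.0450 with edgeR). The call rested on all 6 libraries. Leaving out any 1 of them kept the log2 fold change between -0.95 and -0.79 but raised the adjusted p to between 0.0587 and 0.315 (edgeR). Without sedanolide 3, 70 of all features were called lower. Leaving out any other library gave 0 to 7, beside 44 with all 6 libraries.

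APOC1, which restrains lipases and the uptake of remnants, was at 142, 140 and 128 CPM in the controls and at 108, 92.2 and 98.3 CPM with sedanolide. The groups did not overlap, and the log2 fold change was -0.46 ± 0.12 (SE; adjusted p = 0.185 with edgeR). APOC2, the activator of lipoprotein lipase, was at 156, 178 and 154 CPM in the controls and at 136, 122 and 136 CPM with sedanolide. It differed by less than APOC1, with a log2 fold change of -0.31 ± 0.12 (SE; adjusted p = 0.369 with edgeR). APOC2 shares 676 exon bases with the read-through gene APOC4-APOC2, whose counts were 29.9% of its own. The sum of both was 204, 229 and 198 CPM in the controls and 174, 162 and 178 CPM with sedanolide, again without overlap.

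APOM, the carrier of sphingosine-1-phosphate on high-density lipoprotein, was at 167, 195 and 125 CPM in the controls and at 88.7, 80.7 and 129 CPM with sedanolide. Sedanolide 3 lay just above control 3, so that the groups overlapped, with a log2 fold change of -0.71 ± 0.23 (SE; adjusted p = 0.297 with edgeR). APOM overlaps 136 exon bases of BAG6 on the opposite strand, whose counts were 498% of its own. The strand setting of the counting was not given in the sources used here, so that the value of APOM is uncertain. LCAT, the enzyme that esterifies cholesterol on high-density lipoprotein, was at 15.7, 17.3 and 13.7 CPM in the controls and at 12.4, 11.4 and 13.9 CPM with sedanolide, with a log2 fold change of -0.31 ± 0.15 (SE; adjusted p = 0.457 with edgeR). It shares 336 exon bases with SLC12A4 on the same strand, whose counts were 472% of its own, so that the value is uncertain.

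The structural apolipoproteins gave smaller or less even differences. APOA2, of high-density lipoprotein, did not overlap between groups (1589 ± 36.9 against 1348 ± 107 CPM, SD, n = 3 each) and had a log2 fold change of -0.24. APOA1, the main protein of high-density lipoprotein, had a value of 0.059 ± 0.26 (SE), and APOB, the large protein of very low-density lipoprotein, -0.23 ± 0.30 (SE). APOB ranged from 6482 to 14476 CPM within the sedanolide group alone. APOE, a ligand of lipoprotein receptors, and APOH, which binds phospholipids, had values of -0.23 and -0.14 with overlapping groups. APOA4 (0.11) and APOC3 (-0.064), an inhibitor of lipoprotein lipase, also overlapped.

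Of the 36 genes, 20 lie in 7 genomic clusters, defined here as genes of the group within 500 kb of each other. In the 48.3 kb cluster on chromosome 11 (GRCh38, 116789367 to 116837622), APOA5 was called, whereas the log2 fold changes of APOA4, APOC3 and APOA1 were 0.11, -0.064 and 0.059. In the 43.8 kb cluster on chromosome 19 (44905791 to 44949565), APOE, APOC1 and APOC2 all had negative values, from -0.46 to -0.23. In the cluster on chromosome 14 (94304248 to 94624055), SERPINA6, SERPINA1 and SERPINA3 had values of -0.17, -0.15 and -0.32. SERPINA7, with the lowest value of the serpins among the 36 genes, lies apart from them on chromosome X (106032435 to 106038727). The cluster of ITIH1, ITIH3 and ITIH4 on chromosome 3 held the gene with the second smallest p, ITIH3, and both of its scarce neighbours. The values of AHSG and FETUB on chromosome 3 (-0.49 and 0.84) and of AMBP, ORM1 and ORM2 on chromosome 9 (-0.044, 0.052 and 0.075) differed in sign. APOA4 and APOA1 on chromosome 11 and the 3 genes on chromosome 9 lay near 0 and turned sign under some alternatives. No test of the difference between neighbours was made.

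Levels between genes were compared in TPM, which set the reads of a gene per length of its transcript and per library. The most abundant of the 30 genes in the deposited TPM table was APOA2, at 8288, 9390 and 8315 TPM in the controls and 6429, 6087 and 8245 TPM with sedanolide. TF followed with 6645, 8017 and 4500 TPM in the controls and 2997, 3450 and 5670 TPM with sedanolide. APOA1, SERPINA1 and AHSG came next, and the ranges of TF, APOA1, SERPINA1 and AHSG over the libraries overlapped.

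APOA1 was at 4401, 3565 and 5166 TPM in the controls and 4912, 4498 and 3243 TPM with sedanolide. SERPINA1 was at 4833, 4624 and 3789 TPM in the controls and 3274, 3738 and 4119 TPM with sedanolide. AHSG was at 5024, 5573 and 3092 TPM in the controls and 2308, 2715 and 4005 TPM with sedanolide. In APOA1 the highest values were those of control 3 and sedanolide 1, while in AHSG the same libraries were the lowest of their groups. AMBP stood well below these genes, at 1428, 1364 and 1206 TPM in the controls and 1085, 1188 and 1318 TPM with sedanolide. At the other end, ITIH3 (7.71 ± 1.45 TPM in the controls, SD, n = 3) and APOA5 (19.3 ± 2.97 TPM in the controls) were among the scarcest, so that the genes with the smallest p-values were minor transcripts of the group.

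**Figure D3:**
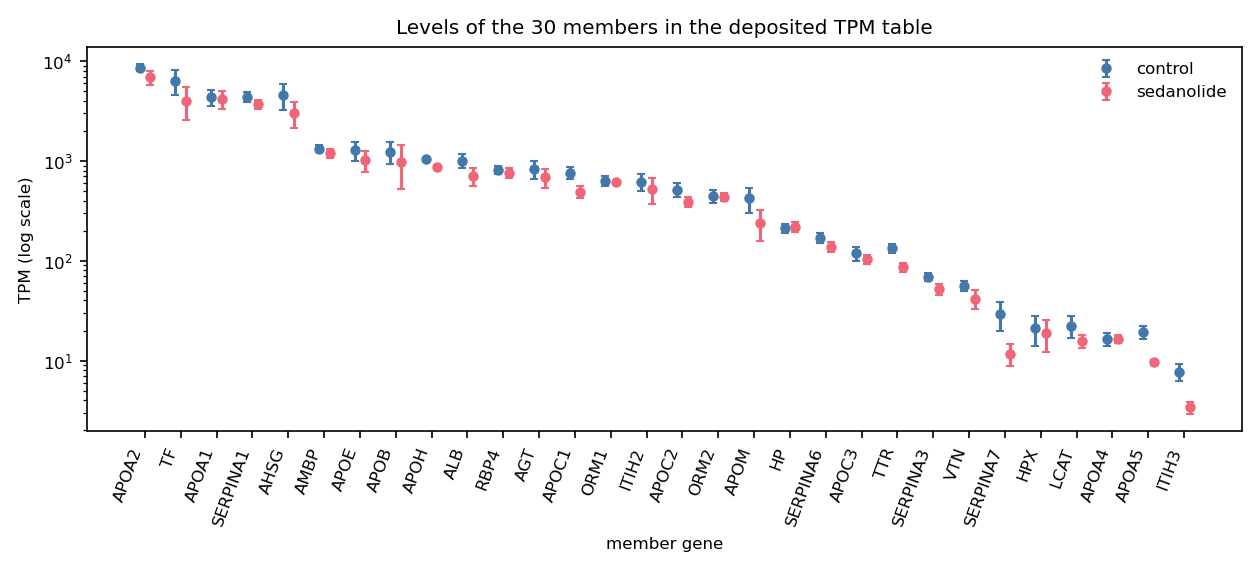
Mean TPM with SD (n = 3 libraries a group) of the 30 genes found in the deposited TPM table, on a log scale and in order of their mean level. APOA2 is the most abundant and ITIH3 the least; the control mean lies above the sedanolide mean for most genes.

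Together, the 36 genes took 3.85%, 4.0% and 3.15% of the counts in control 1, 2 and 3 and 2.49%, 2.90% and 3.63% in sedanolide 1, 2 and 3. The means were 3.67 ± 0.452% and 3.01 ± 0.575% (SD, n = 3 each), and the groups overlapped. An exact two-sided permutation test gave p = 0.2, where 0.1 is the smallest p that 3 against 3 libraries allow. APOB alone held 34.2% of these counts. Without it the share was 2.44 ± 0.230% in the controls and 1.98 ± 0.166% with sedanolide (exact permutation p = 0.1). The groups then met almost exactly, at 2.174% in control 3 and 2.171% in sedanolide 3. Leaving out APOB was not part of the planned test, and the genes were chosen with earlier results of these data known.

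Many of these genes also differed between the sides of component 1. Expressed as the second minus the first side on the log2 CPM scale, the difference was 0.89 for HPX, 0.63 for APOA1, 0.50 for VTN and 0.45 for HP. It was -0.64 for APOB, -0.58 for TF, -0.57 for APOM and -0.56 for AHSG. In total 23 of the 32 genes were lower on the second side, which holds 2 sedanolide libraries and 1 control, with a median of -0.090, beside 47.6% of all features lower and a median of 0.023. SERPINA7 (-0.46) belonged to the genes lower on that side, whereas TTR (-0.0038), APOC1 (-0.060) and SERPINA3 (-0.066) differed little.

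**Figure D4:**
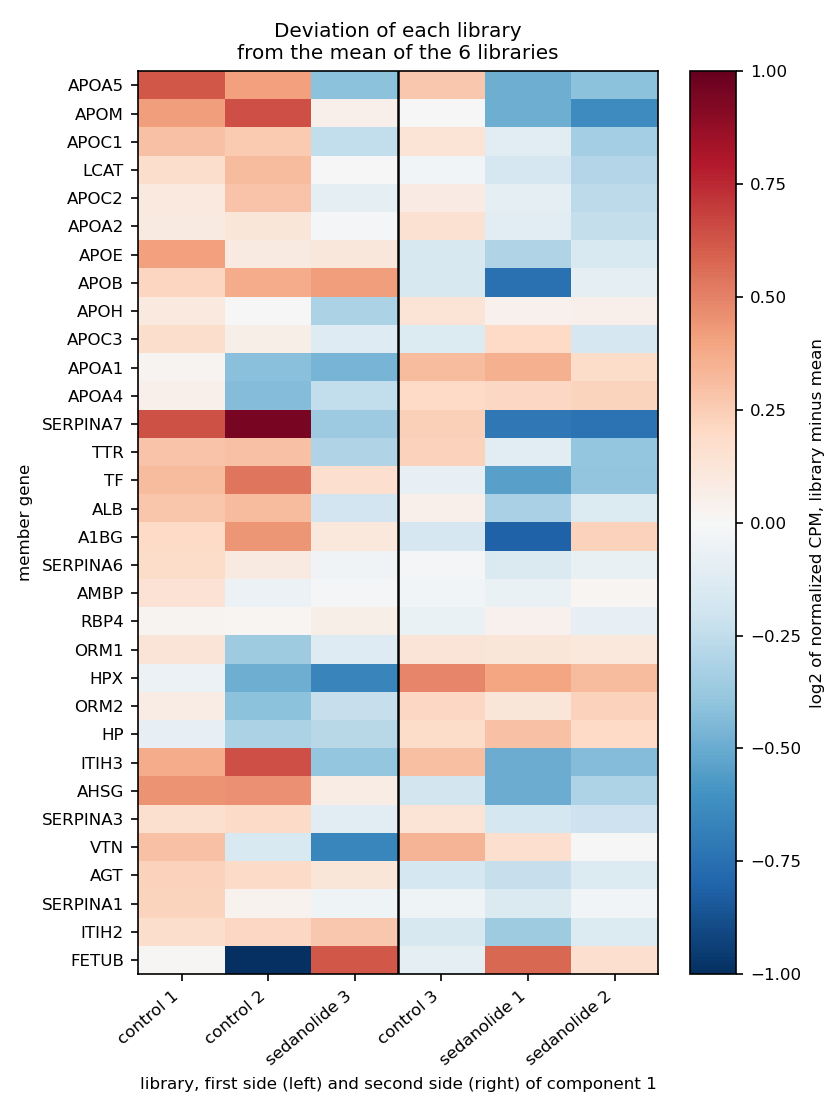
Deviation of each library from the mean of the 6 libraries in log2 CPM (color scale, red higher and blue lower, clipped at 1) for the 32 genes tested, with the libraries of the first side of component 1 on the left of the line and those of the second side on the right. APOA5, ITIH3, SERPINA7 and TTR are blue in all 3 sedanolide libraries, while APOA1 and HPX are blue in control 2 and sedanolide 3 and red on the right.

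The groups were also compared within each side. The log2 fold change was negative on both sides in 24 of the 32 genes (75.0%), beside 34.0% of all features, and positive on both in 2 (6.25%), beside 36.6%. Its median was -0.25 on the first side (2 controls, 1 sedanolide library) and -0.11 on the second (1 control, 2 sedanolide libraries), beside 0.0033 and 0.012 over all features. For APOA5 the values were -0.93 and -0.72, for ITIH3 -0.90 and -0.76, and for SERPINA7 -1.16 and -0.97. For TTR they were -0.59 and -0.47, for APOC1 -0.52 and -0.36, and for ALB -0.49 and -0.28. With the side as a term in edgeR, APOA5 (adjusted p = 0.00671), ITIH3 (0.00945) and SERPINA7 (0.00216) were called lower. These were 3 of the 32 genes (9.38%), beside 1.63% of all features called lower. The side was itself read from the same counts, which the p-values of the fit with the side do not allow for. At an unadjusted p under 0.05, 14 of the 32 genes were lower in that fit (43.8%, beside 10.1% of all features). TTR, APOC1 and APOM then had adjusted p = 0.0293, 0.0457 and 0.0224 with edgeR, but their log2 fold changes of -0.53, -0.44 and -0.52 stayed under the required fold change of 1.5. The same fit gave 0 of the 32 genes called higher, beside 1.07% of all features, and 0 higher at an unadjusted p under 0.05, beside 9.44%.

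Longer transcripts tended to be lower on the second side. Over the 30 genes with TPM, Spearman's rho between the side difference and the effective length, taken as CPM over TPM relative to the median gene, was -0.41, and over the 10940 features with both values it was -0.38. All of these points share the same 6 libraries, and the values are a description. APOB had both the greatest effective length and the lowest side difference of the 30 genes. The mitochondrial share and the length moved with the sides together, and their part in the fold changes was not tested.

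**Figure D5:**
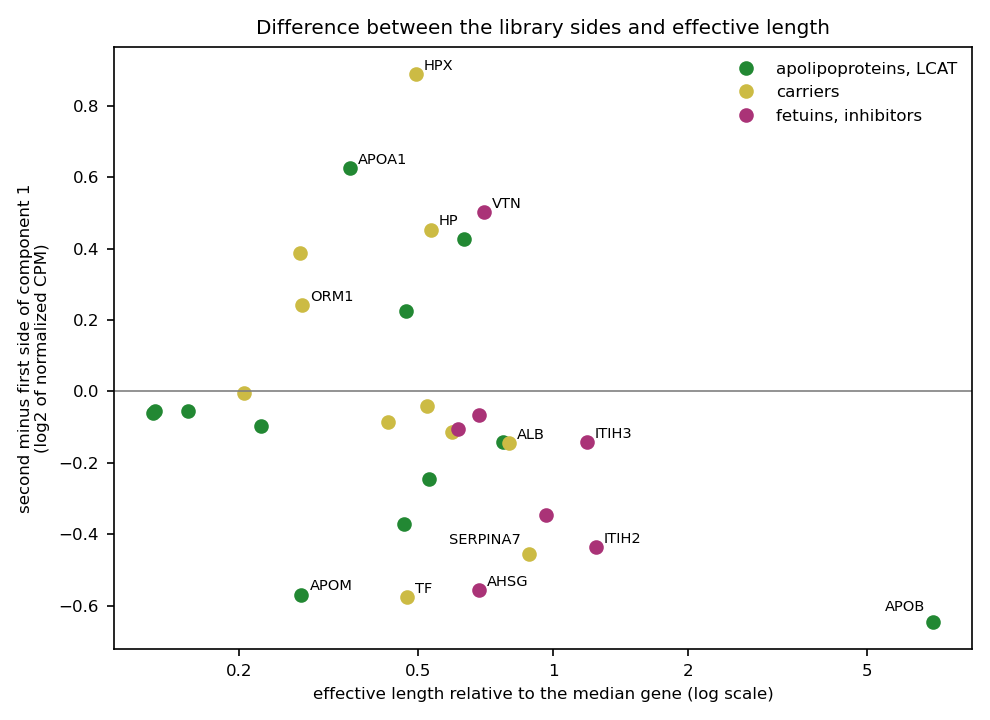
Difference between the sides of component 1 (second minus first, log2 CPM) against effective length relative to the median gene (log scale), 1 point for each of the 30 genes with TPM, colored by role. APOB lies at the lower right, HPX and APOA1 at the top, and ITIH3 and ALB at -0.14.

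Genes that act with these proteins were read from lists of lipoprotein handling, other plasma proteins, receptors and liver transcription factors. None of their genes was called in edgeR or limma-voom. Their counts at an unadjusted p under 0.05 stand beside 6.57% of all features lower and 5.35% higher in edgeR, and their medians beside 0.0057 over all features. Calls by DESeq2 and by the fit with the side as a term stand beside 1.4% and 1.63% of all features called lower. Of the lipoprotein list, 25 of 29 genes were tested, with 5 lower and 0 higher at an unadjusted p under 0.05 and a median log2 fold change of -0.25. They were APOF (-1.38), an inhibitor of lipid transfer, CETP (-1.30), which exchanges cholesteryl ester for triglyceride, PON1 (-1.39), an esterase of high-density lipoprotein, MTTP (-0.35), which loads lipid onto APOB, and CIDEB (-0.48), which acts in the lipidation of lipoproteins. APOF was at 2.18, 2.41 and 2.49 CPM in the controls and 1.18, 0.811 and 0.753 CPM with sedanolide. MTTP was at 146, 160 and 152 against 119, 123 and 119 CPM. CETP and PON1 were scarce, at 1.88, 1.52 and 1.98 against 0.806, 0.734 and 0.634 CPM for CETP. PON1 was at 1.33, 1.06 and 0.904 against 0.376, 0.618 and 0.238 CPM. The standard errors were 0.24 for CETP and 0.39 for PON1, beside 0.10 for MTTP. DESeq2 and the fit with the side as a term called 2 genes of this list lower, APOF and CETP.

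Of 30 other plasma proteins, 23 were tested, with 7 lower and 2 higher at an unadjusted p under 0.05 and a median of -0.36. The smallest p-values among them were those of AZGP1 (-1.05), FGL1 (-0.69), SERPINA4 (-0.56) and SERPINA11 (-1.39), a neighbour of the serpins of chromosome 14. Antithrombin, SERPINC1 (0.30), and CPN2 (0.26) were the 2 higher ones. DESeq2 called 3 genes lower here and the fit with the side as a term 2. Of 16 receptors and partners of the carriers, 9 were tested, and 1 was lower at an unadjusted p under 0.05. It was DIO1 (-0.79; adjusted p = 0.0618 with edgeR), the enzyme that turns thyroxine into the active hormone, at 16.3, 19.7 and 16.3 CPM in the controls and 10.6, 9.77 and 9.99 CPM with sedanolide. DESeq2 and the fit with the side as a term called it lower.

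All 30 liver transcription factors were tested, with 7 lower and 0 higher at an unadjusted p under 0.05 and a median of -0.099. Among the lower ones were PROX1 (-0.48), NR0B2 (-0.43) and KLF15 (-0.65). PROX1, a regulator of hepatocyte identity, was at 140, 153 and 136 CPM in the controls and at 91.1, 109 and 107 CPM with sedanolide, without overlap. DESeq2 and the fit with the side as a term called 0 genes of this list.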

How the data were processed

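RNA-seq was available for 6 libraries. Per the labels and methods, strand-marking libraries of captured mRNA were read as 150 bp pairs. The submitters' processing notes name FastQC, Trimmomatic, STAR and RSEM with GRCh38. Versions and the annotation release were not given in the sources used here. The authors deposited expected counts from RSEM, not normalized, and a table of log2(TPM + 1) for 11006 features, whose filter was not stated.

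Expected counts were rounded to whole numbers. Features were kept with filterByExpr, scaled with TMM and fitted in edgeR 4.0.16 (R 4.3.3; robust quasi-likelihood test). Normalized CPM are counts over the effective library size. DESeq2 1.42.0, limma-voom and limma on the TPM table (limma 3.58.1), other scalings and filters, a replicate block, a term for the side of component 1 and leaving out each library were alternatives. In a simulation over 14090 genes with the library sizes of this comparison, edgeR recovered 59 of 100 changes of 2-fold size, 100 of 100 of 4-fold size, and made 8 calls among unchanged genes. The simulated counts had the same dispersion in every gene and no component 1, and changes were placed only in well counted genes. The simulation therefore checks the code and does not give the power or false calls of the real comparison. Within each group, counts of every pair of libraries differed by more than sampling noise. Positions were taken from GENCODE 44. AFM, GC, ITIH1 and ITIH4 were too scarce to be tested, and AFM, FETUB, A1BG, GC, ITIH1 and ITIH4 were not in the TPM table. Promoter windows were matched by symbol, and none was used for APOA1, APOB, APOC3, GC, HP, ITIH2, LCAT, ORM2 and TTR.

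The genes, lists, tests and the split by component 1 were chosen with earlier results of these data known. Values per library were given for genes past both thresholds, the 12 with the smallest p and the 6 with the highest TPM. In the other lists, up to 4 genes with the smallest p were named, except for a result not reported here, and CIDEB, SERPINC1 and CPN2 were named after their values were seen.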

Additional observations from a re-analysis of the deposited data

How the results depend on the processing

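The precision of every value was limited by 3 libraries a group and by the spread along component 1. Beside the 1 gene called lower (APOA5), DESeq2, the table of all genes with at least 1 count and the fit that adds the side of component 1 called 3 lower, namely APOA5, ITIH3 and SERPINA7. Of all features these 3 alternatives called 198 of 14104, 79 of 26457 and 230 of 14104 lower, beside 44 of 14104 in the main fit. A fold change of 2, the log2 TPM table with a pseudocount of 1 or 0.1, and the replicate block called 0, and leaving out 1 library called 0 to 1, where the 1 was SERPINA7. The log2 fold change of APOA5 was -0.92 and -0.99 in the TPM table with a pseudocount of 1 and 0.1 (adjusted p = 0.0558 and 0.0603 with limma), and -0.95 to -0.79 with 1 library left out. Genes lower at an unadjusted p under 0.05 numbered 14 with the side as a term, 5 with the replicate block and 6 to 12 with 1 library left out. Over all features these were 1418 of 14104, 489 of 14104 and 539 to 1719 of 14093 to 14540, beside 927 of 14104 without these changes. limma-voom found 1 higher, FETUB. The median log2 fold change of the genes tested was -0.34 in the TPM table with either pseudocount, where the median over all features was itself -0.074 and -0.079, and -0.31 to -0.17 with 1 library left out. The cause of these differences was not tested.

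Same-numbered libraries did not deviate together (correlations of -0.13, -0.30 and -0.73). Each such pair was split between the sides of component 1, so that these correlations cannot decide whether the numbers pair the samples. With the replicate block the log2 fold change of APOA5 was -0.87 (adjusted p = 0.592 with edgeR), and 0 of all features were called.

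The sign turned for APOB and for 8 genes with values between -0.044 and 0.15. Adding the side to the fit gave -0.0100 for HP, -0.026 for APOA4, -0.053 for ORM2, -0.025 for ORM1, -0.17 for APOA1 and -0.26 for HPX. In the TPM table with a pseudocount of 1 and 0.1 they were -0.023 and -0.023 for ORM2, -0.043 and -0.043 for ORM1, -0.059 and -0.059 for APOA1, -0.16 and -0.17 for HPX, and -0.096 and -0.096 for RBP4. With library size only RBP4 was at -0.028. With 1 library left out the ranges were -0.54 to 0.018 for APOB, -0.055 to 0.25 for APOA4, -0.083 to 0.0091 for AMBP, -0.086 to 0.20 for ORM2, -0.092 to 0.13 for ORM1, -0.12 to 0.27 for APOA1, -0.16 to 0.35 for HPX and -0.013 to 0.047 for RBP4. The other 23 genes kept their sign in every alternative run on them, where FETUB and A1BG had no value in the TPM table. Summing APOC2 with APOC4-APOC2 and ORM1 with ORM2, chosen after seeing the data, changed no call.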
